A study of Macaca mulatta with 9 samples.

Results

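The genes described are 9 genes that the ovarian follicle is known to switch on around ovulation. AREG, EREG and BTC encode growth factors of the EGF family. TNFAIP6, PTX3 and HAS2 help to build the matrix around the egg, PTGS2 makes prostaglandins, and PGR and RUNX1 encode transcription factors. They were chosen by gene symbol, as every probe set that the array annotation gives to 1 of these 9 symbols. AREG and TNFAIP6 were picked from a strong rise in part of the old ovaries, so their levels in old ovaries are given as a description and without a test. Of the 9 genes, 7 had a probe set, a group of short probes read together for 1 transcript. These 7 genes held 16 of the 52766 probe sets tested and were 7 of 14132 named genes. EREG and PTGS2 had no probe set with their symbol and were not analysed here.

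Ovarian RNA came from 9 female rhesus monkeys (Macaca mulatta), 3 for each age group, with 1 array per monkey. The young monkeys were 3 to 4 years old, had normal cycles and had never bred. The middle-aged monkeys were 7 to 8 years old with good reproductive capacity, and the old monkeys were 18 to 19 years old and had lost it. All monkeys were perfused with cold buffer, and each array holds RNA from a piece of 1 ovary, so that the other ovary and the rest of the same ovary were not on the arrays. By their reproductive records, the young and middle-aged monkeys were sampled near proestrus, the days before ovulation, and for the old monkeys the methods give no stage. The arrays carried 1 colour, and the deposited values are intensities on a linear scale made with RMA, which corrects the background, brings the arrays to 1 distribution and sums the probes of a set. The labels call the 3 monkeys of an age biological replicates, and the tests rest on the spread between them.

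In the ovary, the midcycle surge of luteinizing hormone (LH) reaches the granulosa cells of the large follicle. These cells then release AREG, EREG and BTC, which bind the EGF receptor on the cumulus cells around the egg and pass the signal inwards. Cumulus cells answer with HAS2, which makes the sugar chain hyaluronan, with TNFAIP6 and PTX3, which cross-link it into an elastic matrix, and with PTGS2, which makes prostaglandins. PGR and RUNX1 are switched on in granulosa cells by the same surge and take part in the rupture of the follicle wall. AREG, PTGS2, PTX3 and TNFAIP6 are also known outside the ovary as genes of inflammation and tissue repair. In the RefSeq annotation of the assembly T2T-MMU8v2.0, BTC, AREG and EREG follow each other on chromosome 5.

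The array of old monkey 1 stood apart. Across probe sets, whose values are not independent of each other, its log2 intensities had a median Pearson r of 0.957 with the other 8 arrays, whose own medians lay between 0.965 and 0.983. Array medians lay between 24.2 and 25.8 and first quartiles between 9.0 and 9.57, so the arrays were on 1 scale. No detection calls were at hand, and an intensity below the first quartile of its array is therefore not known to be above background. The labelled tissue was borne out by its defining genes in the young ovaries, where ZP3 of the egg coat read 582, 1742 and 2835 and AMH of granulosa cells read 625, 3292 and 412. In the old ovaries ZP3 read 46.3 to 52.4 and AMH 56.4 to 72.3.

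AREG and TNFAIP6 were high in old monkey 1 and in no other old ovary. By their brightest probe sets, BTC, PTX3, HAS2, PGR and RUNX1 were not highest in old 1. None of their probe sets passed the test between age groups. The first 2 genes were picked on this rise, so their contrast with the other 5 is a description only. HAS2, 1 of these 5, was dim throughout. The rise of AREG and TNFAIP6 lay in 1 ovary and not in the old group as a whole. In RNA from whole tissue, a gene read higher because more cells express it and a gene read higher because each cell holds more of its RNA cannot be told apart.

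AREG (Entrez gene 702396), the EGF receptor ligand of the granulosa cell, had 1 probe set. Its intensity was 113, 7.64 and 7.85 in young 1 to 3, 10.6, 27.7 and 8.71 in middle-aged 1 to 3, and 2677, 8.39 and 7.32 in old 1 to 3. Old 1 was 23.7-fold above young 1, the next highest. Young 1 was in turn 4.08-fold above middle-aged 2, so that each age group had 1 ovary above its other 2. The other 2 old ovaries were among the 5 arrays on which AREG lay below the first quartile.

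The AREG mean was 42.8 ± 60.8 for young, 15.7 ± 10.5 for middle-aged and 897 ± 1541 for old monkeys (SD, n = 3 each). Each SD of the young and old groups exceeded its mean, and the ranges of all 3 groups overlapped. On the log2 scale the old mean was 1.53 above the young mean and 2.0 above the middle-aged mean. Without old 1 these differences were -1.27 and -0.81, but both old ovaries left lay below the first quartile of their arrays, so no direction is read from them. The log2 difference of middle-aged from young was -0.47 (standard error 2.16, 95% interval -5.41 to 4.48, adjusted p = 1 from limma), and the spread behind it is pooled over all groups. Without old 1, which is in neither of these groups, the standard error was 1.01. Without young 1 the log2 difference of old from young was 2.82.

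**Figure D1:**
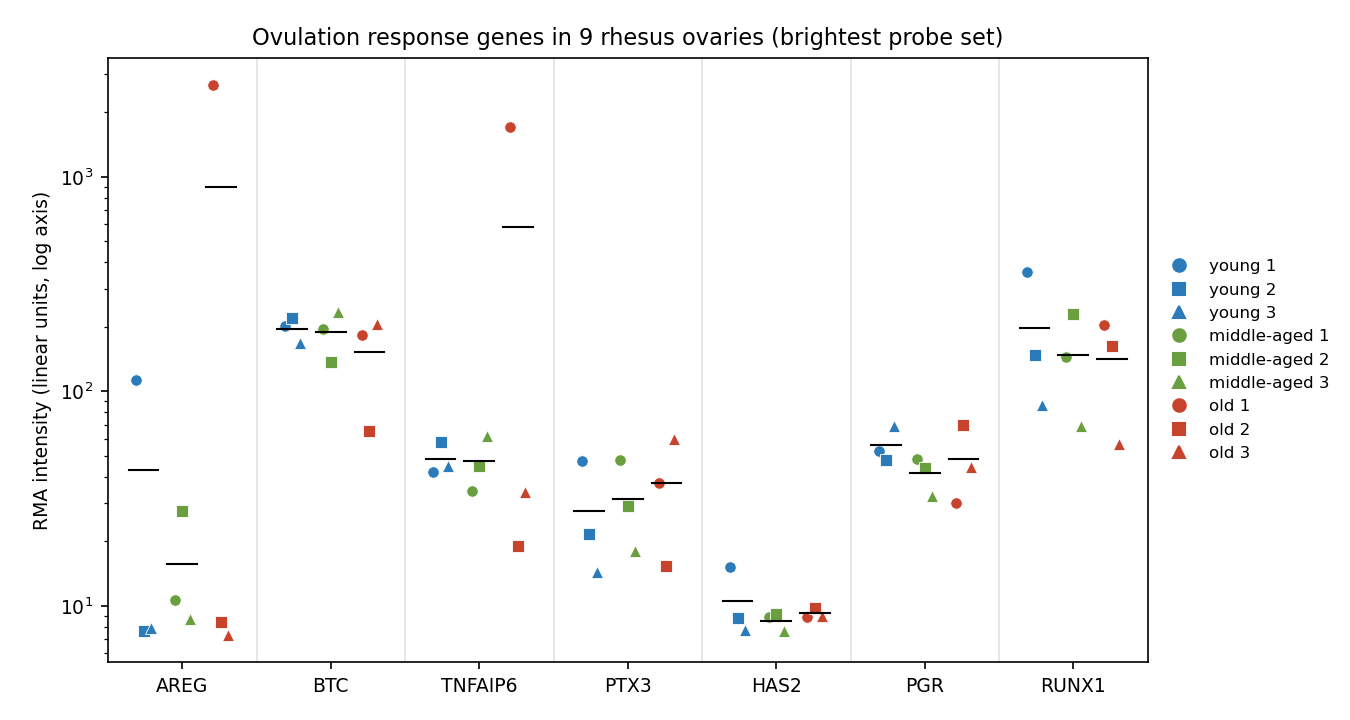
Intensity after RMA, in linear units drawn on a log axis, for the brightest probe set of each of the 7 measured genes on the 9 arrays. Colour marks the age group and shape the monkey, and the black bars are the means of 3 ovaries. AREG and TNFAIP6 were highest in old 1, at 2677 and 1705, while BTC, PTX3, HAS2, PGR and RUNX1 had no point far above the rest.

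BTC (Entrez gene 702178), betacellulin, the second ligand with a probe set, did not share this pattern. Its intensity was 201, 219 and 168 in young 1 to 3, 196, 137 and 234 in middle-aged 1 to 3, and 184, 65.2 and 207 in old 1 to 3. Old 2 was the lowest ovary, and the next lowest was 2.10-fold higher. Old 1 lay between the other 2 old ovaries, and the groups overlapped. The mean was 196 ± 25.6 for young, 189 ± 48.8 for middle-aged and 152 ± 75.9 for old monkeys (SD, n = 3 each). The log2 difference of old from young was -0.53 (standard error 0.41, 95% interval -1.47 to 0.42, adjusted p = 0.622 from limma), and without old 2 it was 0.0002 (standard error 0.23). Against middle-aged the log2 difference of old was -0.45 (adjusted p = 0.832 from limma), and middle-aged differed from young by -0.08. Its second probe set read 4.79 to 7.25, below the first quartile on all 9 arrays.

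TNFAIP6 (Entrez gene 694699), whose protein moves heavy chains onto hyaluronan and so stabilizes the cumulus matrix, had 2 probe sets. The brighter one read 42.3, 57.9 and 44.8 in young 1 to 3, 34.4, 44.8 and 62.1 in middle-aged 1 to 3, and 1705, 18.9 and 33.9 in old 1 to 3. Old 1 was 27.5-fold above middle-aged 3, the next highest, and 39.2-fold above the median of the other 8 arrays, 43.5. At the other end, old 2 was the lowest of the 9 ovaries and old 3 the next, so the highest and the lowest value both came from old monkeys.

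The second TNFAIP6 probe set read 9.18, 12.7 and 12.5 in the young, 6.61, 12.3 and 17.3 in the middle-aged and 529, 7.33 and 11.7 in the old ovaries. It was again highest in old 1, 30.5-fold above middle-aged 3. The 2 sets correlated over the 9 arrays with a Pearson r of 0.985, and over the 8 arrays without old 1 with an r of 0.772. Both sets read the same RNA of a gene picked for this rise, so their agreement in old 1 is a description only. The mean of the brighter set was 48.3 ± 8.42 for young, 47.1 ± 14 for middle-aged and 586 ± 969 for old monkeys (SD, n = 3 each). The log2 difference of old was 1.11 from young and 1.17 from middle-aged, and without old 1 it was -0.92 and -0.85. For the second set the differences were 1.65 and 1.67, and -0.29 and -0.28 without old 1. This dimmer set lay below the first quartile on 3 arrays, old 2 among them, so no direction is read from its values without old 1. Middle-aged and young ovaries differed by -0.07 on the log2 scale in the brighter set (standard error 1.42, adjusted p = 1 from limma), and without old 1, whose spread enters the pooled estimate, the standard error was 0.28.

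PTX3 (Entrez gene 704985), a pentraxin of innate immunity that anchors TNFAIP6-bound hyaluronan in the cumulus matrix, had 1 probe set. It read 47.4, 21.5 and 14.4 in young 1 to 3, 47.7, 29.2 and 17.9 in middle-aged 1 to 3, and 37.4, 15.3 and 59.6 in old 1 to 3. The highest ovary was old 3, only 1.25-fold above the next, and old 1 lay between the other old ovaries. The mean was 27.8 ± 17.4 for young, 31.6 ± 15 for middle-aged and 37.5 ± 22.2 for old monkeys (SD, n = 3 each). The log2 difference of old was 0.40 from young (standard error 0.60, 95% interval -0.98 to 1.79, adjusted p = 0.815 from limma) and 0.15 from middle-aged (adjusted p = 0.971 from limma). The order of the 3 means was thus within the spread between monkeys of 1 age, and the difference from young was 0.02 without young 3 and -0.03 without old 3.

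HAS2 (Entrez gene 703353), the hyaluronan synthase of the cumulus, was dim everywhere. Its brighter probe set read 15.2, 8.80 and 7.73 in young 1 to 3, 8.87, 9.12 and 7.59 in middle-aged 1 to 3, and 8.89, 9.73 and 9.01 in old 1 to 3. On 6 of the arrays, old 1 among them, it lay below the first quartile. Young 1 was highest, 1.56-fold above the next, in a gene at the dim end of the arrays. The log2 difference of old was -0.14 from young (standard error 0.23, 95% interval -0.67 to 0.39, adjusted p = 0.841 from limma) and 0.11 from middle-aged (adjusted p = 0.936 from limma). Without young 1 the difference from young was 0.16. The second probe set read 5.49 to 8.64 and lay below the first quartile on all 9 arrays. HAS2 was therefore not measurable above the dim end of these arrays in the ovary where TNFAIP6 was highest. Of the other hyaluronan synthase genes, HAS1 read 45.1 in old 1, 1.53-fold above the next array. HAS3 read 29.5 there, its lowest value.

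PGR (Entrez gene 613024), the progesterone receptor, had 1 probe set. It read 52.4, 48.0 and 68.6 in young 1 to 3, 48.3, 43.9 and 32.4 in middle-aged 1 to 3, and 30.3, 69.7 and 44.4 in old 1 to 3. Old 1, the ovary with the highest AREG and TNFAIP6, had the lowest PGR of the 9, and old 2 had the highest. The mean was 56.3 ± 10.9 for young, 41.5 ± 8.23 for middle-aged and 48.1 ± 20.0 for old monkeys (SD, n = 3 each). The log2 difference was -0.29 for old from young (standard error 0.30, adjusted p = 0.712 from limma), 0.15 for old from middle-aged (adjusted p = 0.935 from limma) and -0.44 for middle-aged from young (95% interval -1.13 to 0.25). Without old 1 the difference of old from young was -0.0010, and without old 2 it was -0.60.

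RUNX1 (Entrez gene 696749), a transcription factor also known from blood cell formation, had 7 probe sets. The brightest read 360, 148 and 86.7 in young 1 to 3, 145, 230 and 68.6 in middle-aged 1 to 3, and 205, 163 and 56.7 in old 1 to 3. In every age group monkey 3 was the lowest, and young 1 was the highest ovary, 1.57-fold above middle-aged 2. The means were 198 ± 144, 148 ± 80.7 and 142 ± 76.4 in the order of age (SD, n = 3 each), and the groups overlapped almost wholly. The log2 difference of old was -0.43 from young (standard error 0.68, 95% interval -1.97 to 1.12, adjusted p = 0.827 from limma) and -0.09 from middle-aged (adjusted p = 0.984 from limma). The difference from young was 0.13 without young 1 and 0.14 without old 3.

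The 7 RUNX1 probe sets did not move alike. Their 21 pairwise Pearson correlations over the 9 arrays ran from -0.52 to 0.92 with a median of 0.10, and the brightest set and the second brightest gave the highest. The third brightest set was highest in old 1, at 40.2, but only 1.13-fold above the next array. The fourth brightest set read 28.2, 23.7 and 22.3 in young, 21.7, 19.9 and 14.4 in middle-aged and 24.6, 31.5 and 23.7 in old ovaries, so that the middle-aged group lay below both others without overlap. Its log2 difference of old from middle-aged was 0.52 (standard error 0.19, 95% interval 0.09 to 0.95, adjusted p = 0.578 from limma). With an unadjusted p of 0.023 in the fit by limma, it was the only probe set of the 7 genes under 0.05 before adjustment, and it did not pass. The fifth brightest set held the value 23.7 on 6 arrays, as 132 of the 52766 probe sets (0.250%) held 1 value on 6 or more arrays, and its lack of spread there comes from the deposited values.

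**Figure D2:**
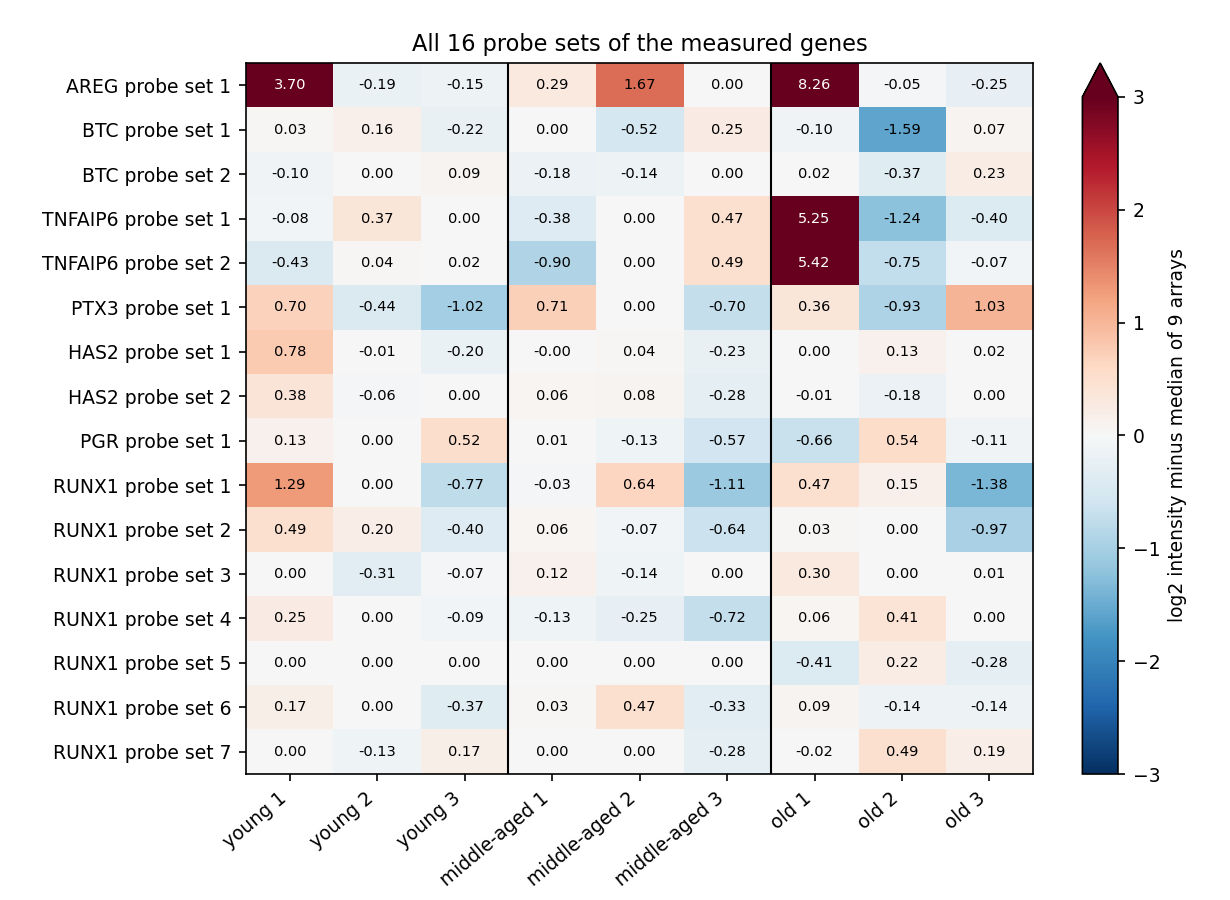
Each of the 16 probe sets (rows) on each of the 9 arrays (columns), as the log2 intensity minus the median of that probe set over the 9 arrays. The colour scale stops at 3, and printed numbers give the values beyond it. The AREG set and both TNFAIP6 sets stood 8.26, 5.25 and 5.42 above their medians in old 1 and the 13 other sets lay between -0.66 and 0.47 there. The median of AREG is itself below the first quartile of the arrays.

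Of the 16 probe sets, 13 were tested in each comparison with old, leaving out those of AREG and TNFAIP6. All 16 were tested between middle-aged and young. Of the sets tested, 0 were called in any of the 3 comparisons. A call was a Benjamini-Hochberg adjusted p under 0.05 over all probe sets together with a fold of at least 1.5. Of all probe sets, 82 of 52766 (0.155%) were called for old against young, 18 (0.0341%) for old against middle-aged and 1 (0.00190%) for middle-aged against young. A count of 0 among 13 or 16 is near these background shares and is no result particular to these genes. Before adjustment, limma gave a p under 0.05 to 0, 1 and 0 of the probe sets tested here in the 3 comparisons. The share of all probe sets at this unadjusted threshold is not given here, so these counts are not read as a result. With the AREG and TNFAIP6 sets counted in, 8 differences of old from young were positive and 8 negative. Their median was -0.02 on the log2 scale beside 0.01 for all probe sets. For old against middle-aged, again with these sets counted in, 10 were positive and 6 negative, with a median of 0.11 beside 0.02. For middle-aged against young, 3 were positive and 12 negative, with a median of -0.11 beside -0.01. The adjusted p-values from limma for the 13 probe sets outside AREG and TNFAIP6 lay between 0.509 and 0.999 for old against young and between 0.578 and 0.990 for old against middle-aged.

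**Figure D3:**
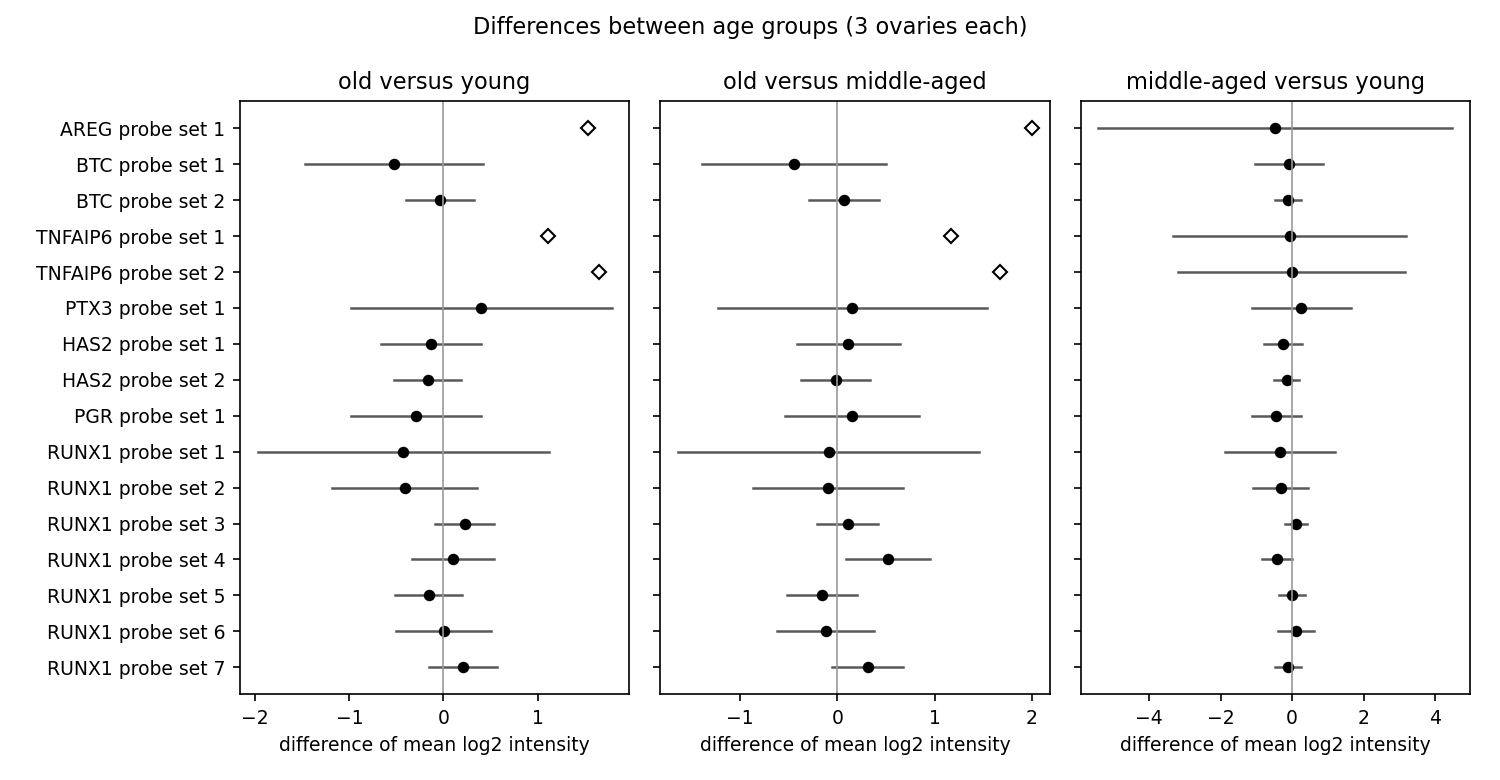
Difference of mean log2 intensity between age groups for the 16 probe sets, with 95% intervals from limma (3 ovaries per group). Open diamonds are the AREG and TNFAIP6 differences from the old group, drawn without an interval since these genes were chosen on them. Apart from the fourth brightest RUNX1 set in old against middle-aged, every interval drawn crosses 0.

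How many genes were high in 1 ovary was counted over all genes. Taking each named gene by its brightest probe set, 387 of 14132 genes (2.74%) were at least 2-fold higher in old 1 than in each of the other 8 arrays, and AREG and TNFAIP6 were 2 of them. None of the 7 genes reached this in another ovary. There the shares of all genes were 0.0849% in young 1, 0.276% in young 2, 0.785% in young 3, 0.0354% in middle-aged 1, 0.0778% in middle-aged 2, 0.0849% in middle-aged 3, 0.354% in old 2 and 0.552% in old 3. Old 1 thus had the most such genes. AREG and TNFAIP6 were picked on this same excess, so their place in its order is a description only. Ranked by the fold over the next array, TNFAIP6 was number 9 and AREG number 10 among the 2827 genes that were highest in old 1. Among all 14132 genes, each at its own highest array, they were number 12 and number 14.

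The rest of the pathway was read from 4 lists of 74 genes, of which 51 were measured and 0 were called in any comparison. In old 1, 6 of the 51 (11.8%, beside 2.74% of all genes) were at least 2-fold above each other array. These were HBEGF, CEBPB, RUNX2, ADAMTS4, PLAU and TIMP1, named after their values were seen. The lists were themselves chosen with earlier results of these data known, so these shares are a description and no independent support. Young 1 and young 3 had 1 such gene each (1.96%), MMP1 and ERBB2, and the other 6 arrays had 0. Old 1 was the highest array for 15 of the 51 genes (29.4%), while it was the highest for 20.0% of all genes.

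**Figure D4:**
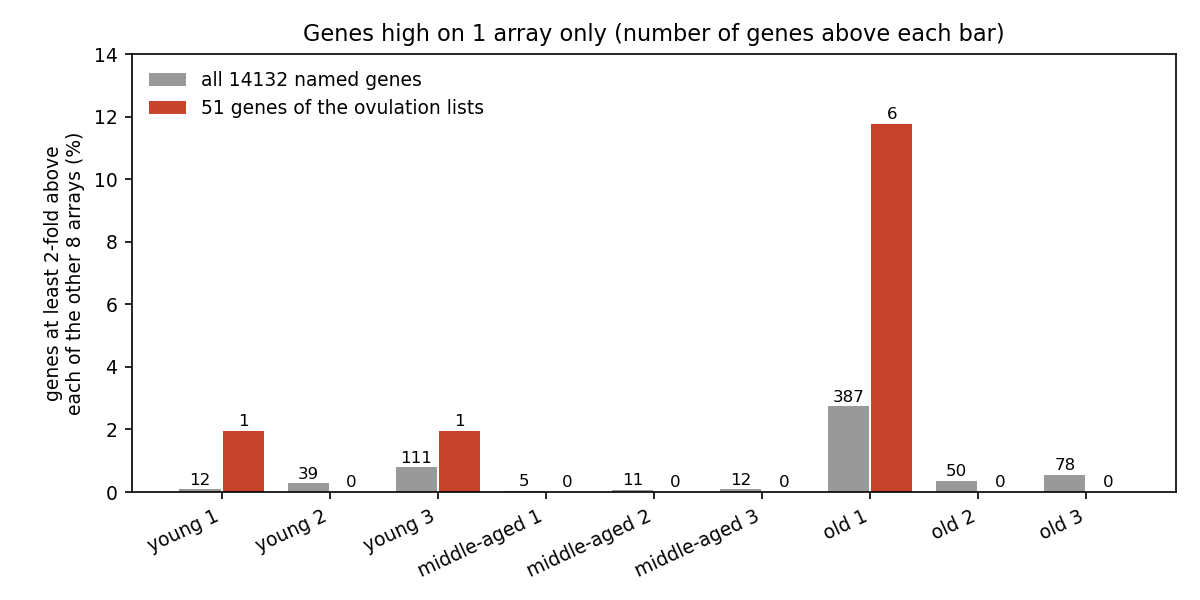
Share of genes (percent, from 0) at least 2-fold higher on 1 array than on each of the other 8, for all 14132 named genes (grey) and for the 51 measured genes of the 4 pathway lists (red). The number of genes stands above each bar. Old 1 had 387 of all genes and 6 of the pathway genes. The lists were chosen with earlier results of these data known.

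Of the 15 genes of the EGF family list, ligands, receptors and the proteases that shed them, 11 were measured. For old against young, 5 differences were positive and 6 negative, with a median of -0.03 on the log2 scale. HBEGF, a further ligand of the EGF receptor, read 106, 44.8 and 38.8 in young, 56.1, 50.6 and 56.1 in middle-aged and 291, 42.5 and 74.0 in old ovaries, and so had the same 2 leading ovaries as AREG, old 1 and young 1. EGFR, the receptor of these ligands, read 114, 69.5 and 50.7 in young, 93.9, 33.7 and 37.0 in middle-aged and 84.4, 39.7 and 18.2 in old ovaries. Old 1 was within the range of the younger ovaries for the receptor. The 3 genes of this list with the smallest p for old against young were NRG1, a ligand of ERBB3 and ERBB4, with a log2 difference of -2.75 (adjusted p = 0.201 from limma), NRG2 with 0.36 (adjusted p = 0.373 from limma) and RHBDF2, a partner of the shedding protease, with 0.27 (adjusted p = 0.417 from limma).

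Of the 23 genes of the LH surge list, receptors and transcription factors, 17 were measured, and the LH receptor gene LHCGR was not among them. For old against young, 10 differences were positive and 7 negative, with a median of 0.20. CEBPB, a transcription factor needed in mice to form the corpus luteum, read 1271, 617 and 1094 in young, 984, 957 and 1264 in middle-aged and 3475, 1705 and 1662 in old ovaries. All 3 old ovaries were above all 6 others, yet the log2 difference from young of 1.17 (standard error 0.35, adjusted p = 0.215 from limma) did not pass the test. CREM, a factor that answers to cyclic AMP, had a log2 difference of 0.99 (adjusted p = 0.221 from limma) and for CREB1 it was -0.39 (adjusted p = 0.318 from limma).

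RUNX2, a relative of RUNX1 that the LH surge also induces, read 492, 73.5 and 46.1 in young, 83.9, 101 and 48.6 in middle-aged and 2393, 55.0 and 227 in old ovaries. It was 4.87-fold higher in old 1 than in young 1, and like AREG it was highest in these 2 ovaries. RUNX1 itself was also highest in young 1, but in old 1 its brightest set was the third of the 9.

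Of the 22 genes of the cumulus matrix list, 19 were measured. For old against young, 12 differences were positive and 7 negative, with a median of 0.40. ADAMTS4, a protease that cuts versican, read 60.6, 44.8 and 28.0 in young, 49.99, 50.7 and 30.6 in middle-aged and 543, 32.6 and 38.1 in old ovaries, 8.95-fold higher in old 1 than in the next. PLAU, the urokinase plasminogen activator, read 200 in old 1 and 27.8 to 91.9 in the others. TIMP1, an inhibitor of matrix proteases, read 24008 in old 1 and 3796 to 9421 in the others. VCAN, the versican that binds hyaluronan in the matrix, was not raised there, with 813 in old 1 and 198 to 3744 in the others. HAS3, another hyaluronan synthase, had the smallest p of the list, with a log2 difference of -1.0 (adjusted p = 0.238 from limma). CTSL, a protease, had one of 0.57 (adjusted p = 0.264 from limma), and ITIH1, a heavy chain that TNFAIP6 can move onto hyaluronan, had 1.01 (adjusted p = 0.272 from limma).

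Of the 14 genes of prostaglandin synthesis and its receptors, only 4 were measured, with a median of -0.04 for old against young. None was at least 2-fold above the others on any array. With PTGS2 and 10 genes of the list not measured, prostaglandin synthesis can hardly be read from these arrays.

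**Figure D5:**
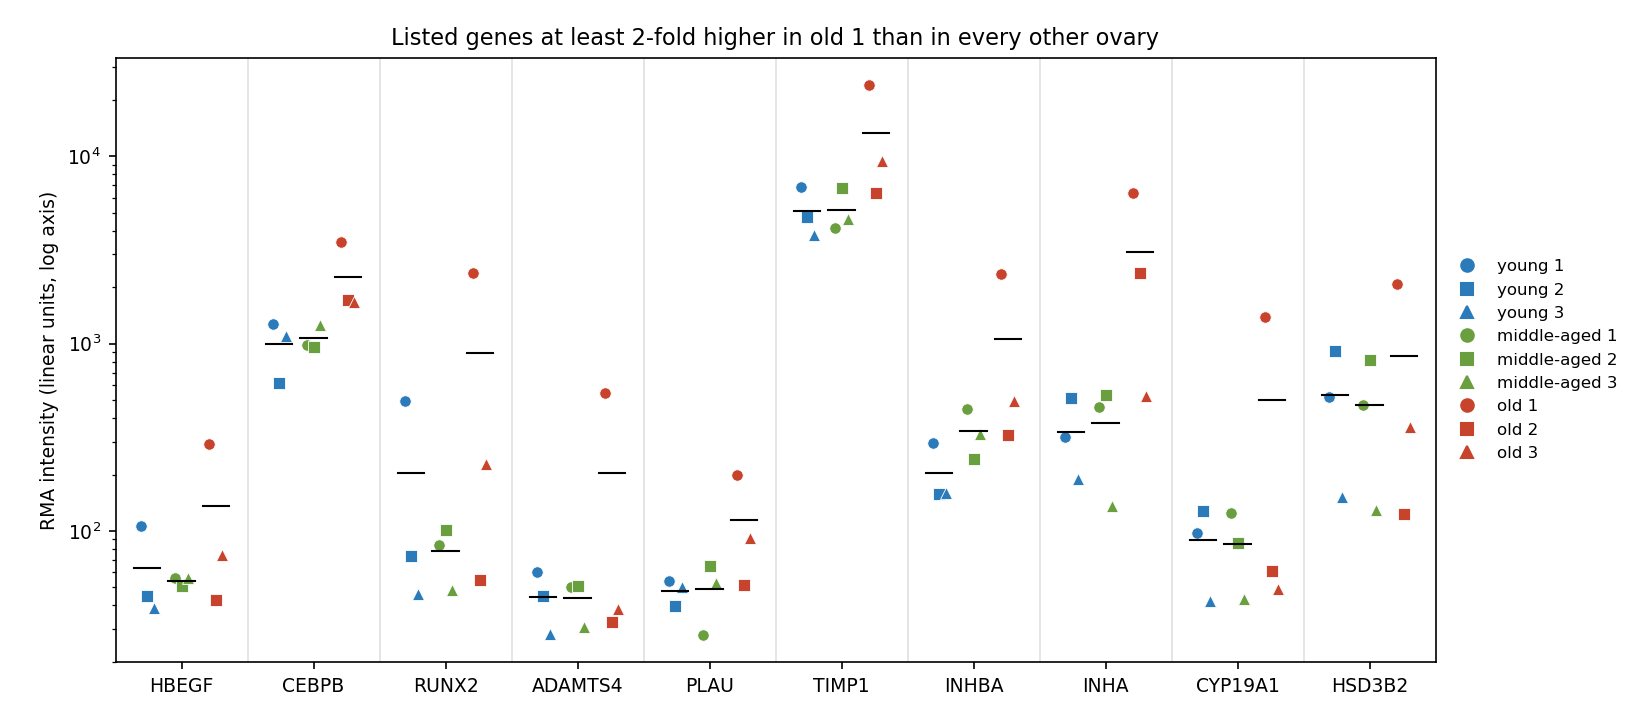
Intensity after RMA, in linear units drawn on a log axis, on the 9 arrays for the 6 pathway genes and of 4 genes of the steroid-making and granulosa lists that were at least 2-fold higher in old 1 than in each other ovary. Colour marks the age group, shape the monkey and the bars the means of 3 ovaries. For each gene the red circle of old 1 is the highest point, and CYP19A1 read 1389 there and 42.2 to 128 elsewhere.

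Other signals were high in old 1 beside AREG and TNFAIP6, and their part in these levels was not tested. The 8 measured genes of steroid-making cells summed to 45786 in old 1 and to 26895 in old 2, where AREG read 8.39, beside 8903 in old 3, 2844 to 9125 in young and 2237 to 9835 in middle-aged ovaries. In 5 of these 8 genes old 1 was the highest array, and CYP19A1 (aromatase), HSD3B2 and INHA were at least 2-fold above each other array. Between old and young, 7 differences of the list were positive and 1 was negative. The negative one was HSD17B1, with a log2 difference of -3.17 from young (adjusted p = 0.279 from limma) and -2.02 from middle-aged. HSD3B2, which makes progesterone, read 2087 in old 1 and 123 to 914 in the others. STAR, which carries cholesterol into the mitochondrion, read 21679 in old 1, 12233 in old 2 and 646 to 3448 in the other 7.

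The 9 measured granulosa genes did not run together. They summed to 8786 in old 1, beside 13929 to 32985 in young, 15742 to 27932 in middle-aged and 8673 to 17810 in old ovaries. INHBA, a subunit of activins and inhibins, read 2343 in old 1 and 157 to 494 elsewhere, while AMH, the hormone of small growing follicles, read 56.4 there, the lowest of the 9. The measured list thus held genes at their highest and at their lowest in the ovary where AREG was highest.

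Among the lists of blood-borne cells, the 11 macrophage genes summed to 4706 in old 1, near the 4667 of middle-aged 2, and in 6 of the 11 old 1 was the highest. The 8 neutrophil genes summed to 269 in old 1 and 109 to 164 in the young and middle-aged ovaries, with S100A8 at 115 beside 11.1 to 40.1 in the other 8 arrays. The 4 measured T and NK cell genes summed to 14740, of which GZMB, granzyme B, was 13847 against 27.0 to 276 in the others. The other 3 measured genes of that list were not highest there, with KLRD1 at 812 beside 1015 to 1701, NKG7 at 37.1 beside 25.4 to 47.7 and CD8A at 44.0 beside 29.9 to 91.8. The 15 measured immediate early genes, which answer to stress and handling as well as to hormones, summed to 10916 in old 1 and to 11276 in middle-aged 3, an ovary with AREG at 8.71. No listed gene was at 0, since the lowest intensity on any array was 3.14.

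The other lists of cells and signals gave the following for old 1. The 10 measured inflammatory cytokine genes summed to 559, beside 207 to 484 in young and 232 to 365 in middle-aged ovaries, and IL1RN, an antagonist of the interleukin 1 receptor, read 104 there and 12.3 to 31.4 elsewhere. The 10 endothelial genes summed to 9004, above the 2126 to 2870 of young and the 2761 to 5786 of middle-aged ovaries, with 2693 in old 2 and 11308 in old 3, and KDR, a VEGF receptor, read 64.3 beside 8.37 to 15.1. The sums for stromal fibroblasts (13128), smooth muscle and pericytes (7058) and mesothelium with surface epithelium (2526) were the lowest of the 9 arrays in old 1. The 3 red cell genes summed to 1369, within the old range of 1012 to 2780.

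Between age groups, these 13 lists held calls for the oocyte list alone, with 5 of its 10 measured genes lower in old than in young ovaries and 1 lower than in middle-aged ovaries, and its sum was 594 in old 1 and 420 in the lowest old ovary. The medians for old against young on the log2 scale, with 0 calls each, were 1.41 for endothelium, 1.28 for steroid-making cells, 0.77 for smooth muscle, 0.44 for immediate early genes, 0.40 for cytokines, 0.37 for T and NK cells, 0.30 for macrophages, 0.18 for neutrophils, 0.16 for red cells, 0.11 for fibroblasts, -0.96 for mesothelium and -1.05 for granulosa cells, beside -0.0046 for all genes.

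Genes with a pattern most like that of AREG or TNFAIP6 were sought by the Pearson r of log2 intensities over the 9 arrays, among named genes brighter than the median probe set. For AREG, among 10448 genes, the leading 5 were NAAA with an r of 0.969, FKBPL with 0.956, CACUL1 with 0.955, GPX4 with 0.951 and DHRS9 with 0.95. Their levels in old 1 differed widely in contrast. DHRS9, a retinol and steroid dehydrogenase, was 11.7-fold higher in old 1 than in the next array, and FKBPL only 1.16-fold.

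For TNFAIP6, among 10447 genes, the leading 5 were EMC3 with an r of 0.985, HIBCH with 0.982, CYB5R4 with 0.980, TMA16 with 0.979 and LOC716142 with 0.978. All of these r were lower without old 1. With the 8 other arrays, which were compared after the data were seen, the r of the AREG genes was 0.730 to 0.851 and that of the TNFAIP6 genes 0.665 to 0.861. Of the 5 genes with an r of at least 0.95 to AREG and the 27 to TNFAIP6, 0 kept such an r without old 1. Over the 8 arrays, 5 other genes had such an r to TNFAIP6, MCTP1 the highest with 0.973. To AREG 0 genes did, and KDM6B was the highest with 0.922.

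AREG and TNFAIP6 themselves had an r of 0.869 over the 9 arrays and of 0.09 over the 8 without old 1. AREG lay below the first quartile on 5 of these 8, so no relation is read from the second r. TNFAIP6 and BTC, both lowest in old 2, had an r of 0.292 over the 9 arrays and of 0.811 without old 1. AREG had an r of 0.327 with HAS2 and 0.570 with RUNX1 over the 9 arrays. Without old 1 these were 0.866 and 0.806, though AREG and HAS2 were dim on most arrays. Young 1 was the highest of the 8 arrays left for AREG, HAS2 and the brightest RUNX1 set alike. Its part in these r was not tested. With BTC, PTX3 and PGR, the r of AREG without old 1 was 0.078, 0.410 and -0.015. These r describe 8 or 9 arrays that share 1 normalization.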

How the data were processed

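The 9 arrays were Affymetrix rhesus expression arrays hybridized with biotin-labelled RNA. Per the labels, the deposited intensities come from RMA, with no version stated. The methods text names LuxScan and LOWESS with reversed dyes, steps of 2-colour slides, and the labels were followed. The deposited intensities are on a linear scale from 3.14 to 26458, and none was missing. They were taken to log2 without further normalization. Of 52865 probe sets, 99 controls were left out, and 52766 were tested. The array annotation gave 1 symbol to 24956 of these, several to 361 and none to 27449. Symbols were checked against RefSeq, and 0 of them changed.

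All tests were fitted in R (version 4.3.3) by limma (version 3.58.1). The model held a mean for each age group over the 9 arrays together, with empirical Bayes variances and Benjamini-Hochberg adjustment over all probe sets. A call needed an adjusted p under 0.05 with a change of 1.5 times or more, the minimum in the methods. The study's own test, SAM, was not run. A gene stands by its set of the highest mean log2 intensity. The text and figures together give all probe sets of the 9 genes. The text names from each of the 4 pathway lists up to 3 genes with the smallest p for old against young. It also names 5 genes of like pattern for AREG and for TNFAIP6. The other 13 lists, of cell types and of early response and cytokine genes, are given by counts, medians and sums, and the genes named from them were chosen after their values were seen. The genes and lists were chosen with earlier results of these data known. Samples were grouped by the age in their labels. The number of arrays limits the precision, since 3 monkeys stand for each age. The fit was tested on simulated data. Alternatives were other normalizations, brighter probe sets alone, the compared groups alone, other variance models, array weights, no fold minimum, averaged probe sets, a replicate block and leaving out each array.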

Additional observations from a re-analysis of the deposited data

How the results depend on the processing

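The count of called probe sets of the 7 genes was 0 under every alternative run in all 3 comparisons, AREG and TNFAIP6 against old being description only. Adjusted p-values were kept for each gene's brightest set or the average of its sets. The lowest of these was 0.359 in limma, for PGR in old against young without old 2. No tested difference passed the threshold under any of them. Directions were less steady, and of 330 log2 differences recomputed, 28 changed sign, 26 of them with 1 array left out. Those of AREG and TNFAIP6 from young and middle-aged did so without old 1, and the report gives the values for BTC, PTX3, HAS2 and RUNX1 against young. With array weights, the AREG difference was 0.46 from young and 0.48 from middle-aged, and that of TNFAIP6 0.01 and 0.14. Over all probe sets, the 82 calls for old against young became 27 with the compared groups alone and 4 to 198 with 1 array left out, the lowest without young 2 and the highest without old 2. The 18 for old against middle-aged became 9 after median centring of the arrays, 5 with the compared groups alone and 1 to 42 with 1 array left out. Replicate numbers were shared between groups, and the labels state no link between monkeys of 1 number. Same-numbered pairs deviated together with an r from -0.025 to 0.41, over 0.1 in 5 of 9 pairs. The pairs of number 3 had 0.252, 0.355 and 0.41. The pairing was not used in the main fit. With the numbers as a replicate block, 229 and 28 probe sets were called, and 0 of the 7 genes' sets. The standard error of the brightest RUNX1 set for old against young was then 0.33, beside 0.68 in the main fit. AREG and HAS2 were too dim to enter the setting with brighter probe sets alone.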

Other observations

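The genes with the largest excess in old 1 over the next highest array, named after their values were seen, were of several kinds. ODAM, a secreted protein of the tooth enamel organ, read 1759 in old 1 and 8.11 to 12.8 in the other 8 ovaries, 138-fold above the next. DEFB122, a beta-defensin, read 1224 beside 12.2 to 15.9, and GZMB, granzyme B, read 13847 beside 27.0 to 276. CYP3A4 and CYP3A5, steroid-oxidizing enzymes best known from liver, were 47.0-fold and 30.5-fold above the next array. HSD11B1, which reactivates cortisol, read 4875 beside 31.2 to 119, and DUSP5, a phosphatase of the ERK pathway, read 463 beside 7.498 to 13.6. TNFAIP6 and AREG followed SERPINA4 in this order. The number of genes at least 2-fold below each other array was 102 in old 1, against 0 to 50 on the other arrays.

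The other 2 old ovaries had leading genes of their own. Old 3 read 11079 for FABP4, a fatty acid carrier of fat cells, 30.5-fold above the next array, with CIDEA and DGAT2, a lipid droplet protein and an enzyme of triglyceride synthesis, 19.0-fold and 9.52-fold above. Old 2 read 657 for SCGB1A1 and 578 for OVGP1, secreted proteins of airway and oviduct epithelium, 10.9-fold and 6.89-fold above.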
